A study of Mus musculus with 3 samples.

Results

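The genes described here are 31 genes of DNA damage signalling and Fanconi repair, taken from a fixed list of symbols among the features of each matrix. All 31 were found. They comprise 6 damage kinases and checkpoint genes, 5 break sensors and mediators, 5 genes of BRCA homologous recombination, 9 Fanconi anaemia genes, 3 of end joining and single strand break repair, and 3 of excision, lesion bypass and nucleotide supply. Their levels were read in single-cell RNA libraries of mouse forelimb buds at embryonic day 9.5. Mutant embryos were Esco2fl/fl;Prrx1-CreTg/0 and gave 2 libraries, and Esco2fl/fl control embryos gave 1 library. Both genotypes carried the floxed Esco2 alleles, and the Cre transgene, driven by Prrx1 regulatory sequence in limb bud mesenchyme, was carried by the mutants alone. A replicate pooled 3 samples of 2 limb buds, 6 buds in all, with 2 male samples and 1 female sample per the design text, so a library is a mixture of embryos. Nothing in the sources used here says that the pools came from separate litters, so p-values apply to these libraries alone. The single control library is taken to vary as the mutant ones do.

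Esco2 acetylates cohesin during DNA replication, which is needed for the sister chromatids to stay together until they separate. Replicating cells that meet broken or stalled DNA signal through Atr and Atm, the apical kinases, to Chek1 and Chek2, which slow the cycle. Brca1, Brca2 and their partners then act in homologous recombination at resected ends, and the Fanconi core complex marks crosslinked or stalled forks by attaching ubiquitin to Fancd2 and Fanci. Much of this machinery is regulated by protein modification, while p53, which acts downstream of the kinases, raises the transcripts of its target genes, among them the cell cycle inhibitor Cdkn1a. In mice Polk, a polymerase that copies past damaged bases, is known to be raised by p53 as well.

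Matrices held 6527 to 8755 barcodes and 178159788 to 225032823 UMIs (unique molecular identifiers, which count captured transcripts) per library, and 3590 and 4684 cells were kept in mutant 1 and mutant 2, against 4048 in the control. Pairs of libraries shared 21 to 23 barcodes. Clusters were named from marker lists, and 5 classes had at least 50 cells in each library: limb mesenchyme, surface ectoderm, endothelium, primitive erythroid-like cells and coelomic epithelium-like cells. Limb mesenchyme, with Prrx1, Tbx5 and Twist1, held 1131 and 1983 cells in the mutants and 634 in the control. UMIs of the CRE feature were seen in 56 and 122 mesenchyme cells of the mutants and in 0 of 634 of the control. Esco2 stood at 23.7 and 21.8 CPM (UMIs per 1000000 of the class) in mutant mesenchyme, against 32.1 CPM in control mesenchyme, a log2 fold of -0.50 (SE 0.27) that was not called by edgeR (adjusted p = 1.00). No label names the floxed exons, and a 3′ tag outside the deleted part checks nothing. Cdkn1a was at 68.6 and 68.7 CPM in mutant mesenchyme and at 1.32 CPM in control mesenchyme.

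In limb mesenchyme as a whole, none of the 31 genes was called different between mutants and control. Calls were made in edgeR's quasi-likelihood test at a p under 0.05 after Benjamini-Hochberg adjustment over the 10188 genes that averaged 5 CPM or more, and 30 members passed that filter, Fancg alone falling under it. Of all genes tested, 0.766% were called higher and 0.442% lower in the mutants. At an unadjusted p under 0.05, 1 member was higher (Polk) and 1 lower (Fance), against 4.52% of all genes. DESeq2 called 0 members as well. The median log2 fold of the 30 members was -0.01, beside 0.00 over all genes. Both mutants lay above the control for 8 of 30 members and below it for 12, and the mutants lay on either side for 10, where 25.8% of all genes had both mutants above and 25.6% both below.

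Among the damage kinases and checkpoint genes, 0 of 6 were called. Atm, the kinase for broken ends, was at 61.6 and 53.03 CPM in mutant mesenchyme and at 61.8 CPM in control mesenchyme. Atr, the kinase for stalled forks, was at 66.2 and 48.2 CPM in the mutants, against 56.5 CPM in the control. The control lay between the mutants for Atr, and next to mutant 1 for Atm. Chek1, which acts under Atr, was at 46.2 and 49.7 CPM in the mutants, against 44.6 CPM in the control. Chek2, which acts under Atm, was at 46.4 and 36.9 CPM in the mutants and at 37.4 CPM in the control. The control lay between the mutants for Chek2, and below both for Chek1, whose difference was smaller than its standard error (log2 fold 0.10, SE 0.31). Topbp1, the activator of Atr, and Wee1, the kinase that holds Cdk1 inactive, had the largest gap between the mutants in this group and are taken up below.

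Of the break sensors and mediators, 0 of 5 were called. Rad50, of the complex that tethers broken ends, was at 93.9 and 91.8 CPM in mutant mesenchyme and at 75.5 CPM in control mesenchyme (log2 fold 0.29, SE 0.35). Its partner Mre11a, the nuclease of that complex, was at 58.2 and 50.4 CPM in the mutants, against 65.2 CPM in the control (-0.27, SE 0.32). Both mutants were on one side of the control for each of these genes, in opposite directions, and each difference was smaller than its standard error. Nbn, the third subunit, was at 28.1 and 28.2 CPM in the mutants and 28.0 CPM in the control. Mdc1 and Trp53bp1, which bind marked chromatin beside a break, had log2 folds of 0.15 and 0.02.

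In the BRCA group 0 of 5 were called and all 5 log2 folds were slightly negative, between -0.24 (Xrcc2, which acts in homologous recombination) and -0.02 (Palb2, which joins Brca1 to Brca2). Brca1 was at 65.7 and 57.5 CPM in mutant mesenchyme and 67.2 CPM in control mesenchyme. Brca2, a mediator of homologous recombination, was at 72.4 and 61.2 CPM in the mutants, against 67.4 CPM in the control. Bard1, the partner of Brca1 in its ubiquitin ligase, had a log2 fold of -0.13. These offsets were smaller than their standard errors of 0.28 to 0.33.

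Of the Fanconi anaemia genes, 0 of the 8 tested were called. Fance, a subunit of the core complex, was at 24.2 and 14.7 CPM in mutant mesenchyme and at 29.7 CPM in control mesenchyme. Both mutants lay below the control, by a log2 fold of -0.33 in mutant 1 and -0.98 in mutant 2. The fitted log2 fold of -0.62 (SE 0.28) had an adjusted p of 0.694 in edgeR. Fancd2 and Fanci, the pair that receives ubiquitin, had log2 folds of -0.04 and 0.10, and Fancl, the ligase that attaches it, -0.05. Fanca and Fancb of the core complex had -0.22 and -0.29, Fancc 0.03 and Fancm, the translocase that anchors the complex at forks, -0.15. Fancg was at 3.71 and 2.98 CPM in the mutants and 2.88 CPM in the control and was not tested.

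Of the end joining and single strand break genes 0 of 3 were called. Xrcc5 and Xrcc6, the Ku subunits that cap broken ends, had log2 folds of -0.04 and -0.10, and Xrcc1, the scaffold of single strand break repair, 0.03. In the last group 0 of 3 were called, and all 3 had positive values. Xpc, which finds helix distortions for excision repair, was at 28.0 and 27.2 CPM in mutant mesenchyme, against 23.1 CPM in control mesenchyme (0.26, SE 0.28). Rrm2b, a p53-responsive subunit of ribonucleotide reductase, was at 8.44 and 9.01 CPM in the mutants and 7.06 CPM in the control (0.31, SE 0.32).

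**Figure D1:**
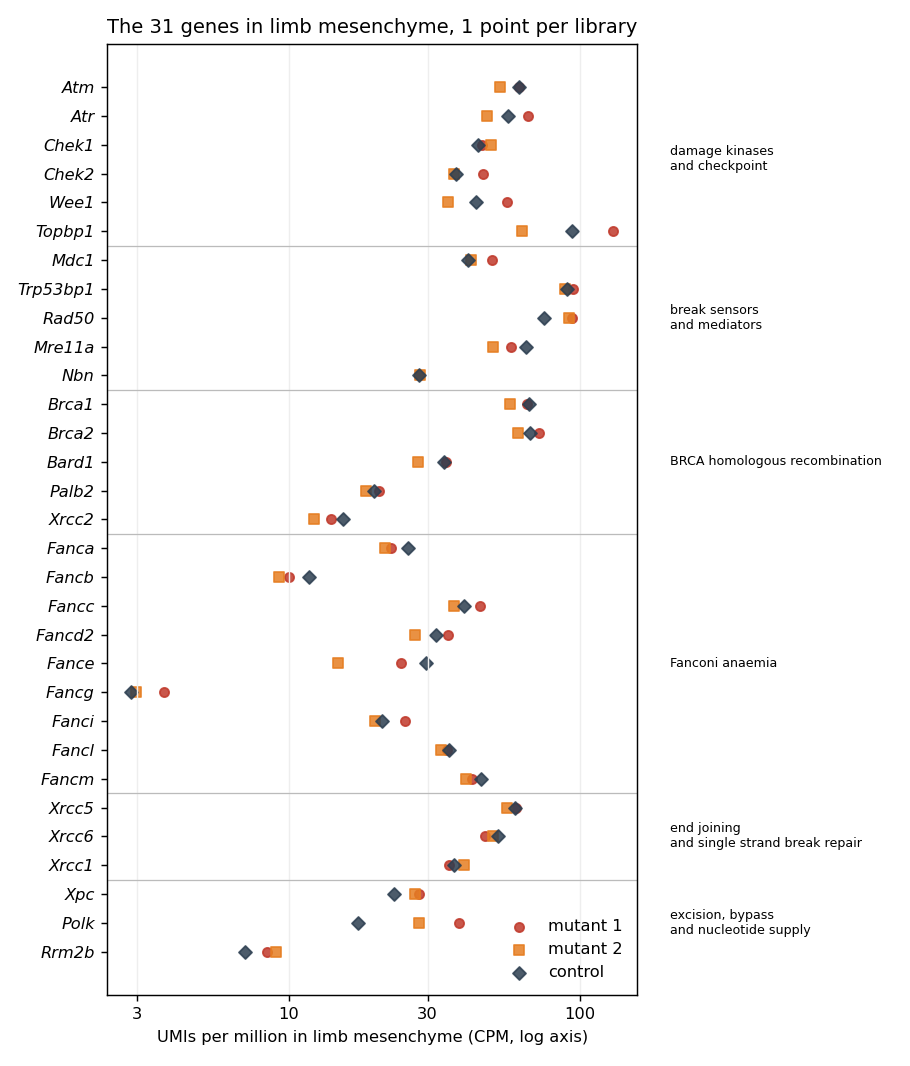
CPM (log axis) of each of the 31 genes in limb mesenchyme, with 1 point for each library and lines between the gene groups. For 10 of the 30 tested genes the control lies between the mutants. Polk stands out to the right in both mutants, at 38.5 and 28.1 CPM against 17.3 CPM in the control.

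Polk was the member furthest apart. It stood at 38.5 and 28.1 CPM in mutant mesenchyme and at 17.3 CPM in control mesenchyme, with log2 folds of 1.11 and 0.73 in the mutants. The fitted log2 fold was 0.93 (SE 0.29), with an unadjusted p of 0.0014 and an adjusted p of 0.0974 in edgeR, so it missed the call. It was called under 4 alternatives (adjusted p = 0.00289 with a stricter cell filter, 0.00637 with called doublets kept, 0.0141 with cells gated one by one and 0.026 with shallow clusters added). It was not called under the others, with an adjusted p of 1.00 after thinning to 20000 UMIs or with the prior degrees of freedom of the ectoderm fit, 0.437 in DESeq2 and 0.0707 at a mean of 1 CPM. The difference was carried by 1 cluster of 144 and 196 mutant cells that held 0 control cells. Without that cluster the Polk log2 fold was 0.23 (SE 0.30, edgeR adjusted p = 1.00).

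Polk (ENSMUSG00000021668) lies on the minus strand of chromosome 13, 96480690 to 96542579 in GRCm38, and 1 other counted gene, Gm17622, overlaps it on the plus strand. The strand setting of the counting is not stated in any label or header. RefSeq (GRCm38.p6) gives Polk a pair of start sites, and the windows from 250 bases before to 50 bases after each are shown with the window of Chek2 and, for comparison, 1 of the windows of Cdkn1a, since these genes carry the differences between cells described next. The capitals mark a match to the p53 half-site decamer, searched by its consensus on both strands, which its palindromic form makes equivalent. It was found in 8.36% of 32851 promoter windows of this length.
Polk, distal start, minus strand, chr13:96542530-96542829: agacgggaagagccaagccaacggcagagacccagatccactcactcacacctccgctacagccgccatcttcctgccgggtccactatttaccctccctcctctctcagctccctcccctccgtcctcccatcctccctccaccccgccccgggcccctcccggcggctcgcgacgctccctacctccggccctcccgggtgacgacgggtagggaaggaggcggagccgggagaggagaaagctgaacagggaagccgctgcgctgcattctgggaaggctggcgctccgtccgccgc
Polk, internal start, minus strand, chr13:96519138-96519437: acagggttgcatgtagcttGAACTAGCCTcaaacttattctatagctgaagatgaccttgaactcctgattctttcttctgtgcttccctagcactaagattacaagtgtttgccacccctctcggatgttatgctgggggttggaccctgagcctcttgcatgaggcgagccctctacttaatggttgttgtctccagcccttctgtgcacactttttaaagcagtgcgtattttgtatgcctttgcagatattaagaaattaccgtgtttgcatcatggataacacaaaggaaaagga
Chek2, plus strand, chr5:110839733-110840032: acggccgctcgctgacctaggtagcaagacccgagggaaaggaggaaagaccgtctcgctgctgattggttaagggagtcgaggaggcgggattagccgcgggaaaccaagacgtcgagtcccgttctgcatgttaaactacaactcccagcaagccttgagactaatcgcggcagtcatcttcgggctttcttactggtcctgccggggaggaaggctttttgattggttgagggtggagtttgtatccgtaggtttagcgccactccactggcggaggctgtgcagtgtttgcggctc
Cdkn1a, plus strand, chr17:29090729-29091028: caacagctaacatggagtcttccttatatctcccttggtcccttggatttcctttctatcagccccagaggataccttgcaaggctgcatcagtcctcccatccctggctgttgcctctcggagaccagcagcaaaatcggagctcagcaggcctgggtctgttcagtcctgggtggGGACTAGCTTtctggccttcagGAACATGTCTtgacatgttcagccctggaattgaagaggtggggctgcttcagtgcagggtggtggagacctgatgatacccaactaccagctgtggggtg
The internal Polk window holds 1 match, beginning at position -231 from its start site, and the distal Polk window and the Chek2 window hold none. The Cdkn1a window shown holds 2, beginning at -73 and -51, and another Cdkn1a window, chr17:29093519-29093818, holds none. Of 24 members with a window in the RefSeq table, 3 held a match (Fanca, Fancg and Polk). A match is a description of the letters and no measurement of binding, and the lack of one says only that these letters are not in that window.

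Within mutant mesenchyme, cells with a Cdkn1a UMI had far more Polk transcripts than cells of the same library without one. Chek2 transcripts were also more frequent in them, by a smaller fold of 1.79 in mutant 1 and 1.88 in mutant 2. Cells were first thinned to 20000 UMIs each, which left out 266 and 288 shallower cells of the mutants. Of the rest, 138 of 865 cells in mutant 1 (16.0%) and 257 of 1695 in mutant 2 (15.2%) had a Cdkn1a UMI, against 8 of 574 in the control (1.39%). Sums of the cells with and without were compared in edgeR with a term for library, over 10467 genes. Of all genes, 14.6% were called higher and 11.2% lower in the cells with a Cdkn1a UMI, so a call in this comparison was common. Of the 30 members tested, 3 were called higher (Polk, Chek2 and Xrcc1) and 1 lower (Atr), a share under that background. The members' median log2 fold was 0.01, beside -0.03 over all genes.

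Polk was at 137.0 CPM in the cells with and 23.9 CPM in the cells without a Cdkn1a UMI of mutant 1, and at 110.7 CPM in the cells with and 17.0 CPM in those without in mutant 2. Control cells without a Cdkn1a UMI were at 22.4 CPM, so mutant cells without one lay on either side of the control while both sums with one lay far above it. The fold was 5.72 in mutant 1 and 6.51 in mutant 2, and the fitted log2 fold was 2.65 (SE 0.10, edgeR adjusted p = 7.72e-157). That fit took nearly all of its spread from counting. With the prior degrees of freedom of the ectoderm fit, an alternative chosen after seeing the data, the adjusted p was 0.000999. At least 1 Polk UMI was found in 76.1% of the 138 cells with and 32.3% of the 727 cells without in mutant 1 (exact 95% intervals 68.1% to 82.9% and 28.9% to 35.9%). In mutant 2 these shares were 71.6% with and 25.8% without (65.7% to 77.0% and 23.6% to 28.1%). Control cells without a Cdkn1a UMI had 29.3% (25.6% to 33.3%). Erythroid-like cells, thinned alike, had a Polk UMI in 13.7% and 16.2% of cells in the mutants and in 12.8% in the control. The intervals cover counting error only.

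Chek2 (ENSMUSG00000029521, GRCm38 chromosome 5, 110839979 to 110874145, plus strand) overlaps no other counted gene. It was at 82.6 CPM in the cells with and 46.2 CPM in the cells without a Cdkn1a UMI of mutant 1, and at 66.3 CPM with and 35.3 CPM without in mutant 2. Control cells without a Cdkn1a UMI were at 45.0 CPM. Both sums with lay above all 3 sums without. The log2 fold was 0.90 (SE 0.10, edgeR adjusted p = 1.21e-18, and 0.00875 with the ectoderm prior). The call was lost when the library term was dropped (adjusted p = 0.0846).

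The other members called moved little. Xrcc1 was at 45.3 CPM with and 35.2 CPM without in mutant 1, and at 47.3 CPM with and 39.1 CPM without in mutant 2 (log2 fold 0.34, SE 0.11, edgeR adjusted p = 0.0132). Atr was at 59.8 CPM with and 76.6 CPM without in mutant 1, and at 41.8 CPM with and 50.2 CPM without in mutant 2 (-0.28, SE 0.10, adjusted p = 0.0258). Both calls were lost with another random seed for the thinning (log2 fold 0.28, adjusted p = 0.0608 for Xrcc1 and -0.15, 0.301 for Atr) and with DESeq2 (0.34, 0.418 and -0.29, 0.436). Both were kept with shallow clusters added, at a mean of 1 CPM and with RLE factors, so the calls depended on the setting while the signs did not change under any alternative run. For Atr, 1700065D16Rik and Gm16794 overlap the gene on the other strand. The remaining 26 members tested, among them Atm, Chek1, Topbp1, the BRCA group and the 8 Fanconi genes tested, lay between -0.22 (Xrcc5) and 0.33 (Rrm2b) and were not called. Over all 31 genes, both libraries were higher in the cells with a Cdkn1a UMI for 8, both lower for 10 and on either side for 13. The same shares were not counted over all genes tested, so nothing particular to the members is shown by these counts. The summed member UMIs per cell at 20000 UMIs averaged 32.4 with and 29.3 without in mutant 1 (SD between cells 12.3 and 10.0). In mutant 2 they averaged 25.5 with and 24.1 without (SD 9.09 and 8.09). These sums include Polk and Chek2, the members with the largest rises, and were not taken without them. A median of 16 members per cell was detected with and 16 without a Cdkn1a UMI in mutant 1. In mutant 2 these medians were 14 with and 15 without.

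**Figure D2:**
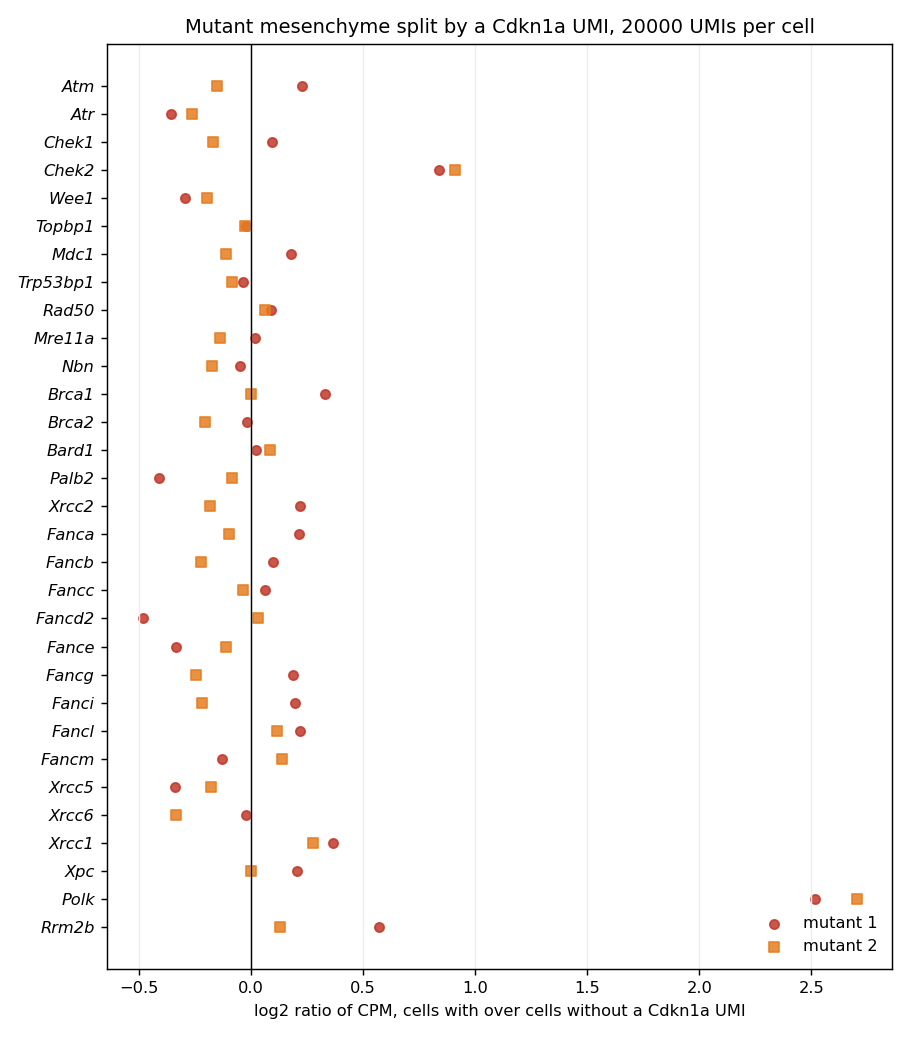
Log2 ratio of CPM in mutant mesenchyme cells with over cells without a Cdkn1a UMI, for each of the 31 genes, with 1 point for each mutant library. Polk (2.52 and 2.70) and Chek2 (0.84 and 0.91) stand apart to the right in both libraries, while most others scatter about 0.

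The cluster that the control lacked held most of the cells with a Cdkn1a UMI. In it 88 of 96 cells of mutant 1 and 165 of 175 of mutant 2 at this depth had one, so the split is in large part a contrast of this cluster with the rest of the mesenchyme. Outside it, in an alternative added after seeing the data, 50 of 769 and 92 of 1520 mutant cells had a Cdkn1a UMI, and 1.09% of genes were called higher and 0.0873% lower. Polk was still called there (log2 fold 1.74, SE 0.17, edgeR adjusted p = 2.67e-06). Chek2 had 0.34 (SE 0.15, adjusted p = 0.518) and was not called. Splitting the cells by other p53 targets instead (at least 2 of Ccng1, Trp53inp1, Eda2r, Ddit4l and Phlda3), where 11.8% of genes were called higher and 8.05% lower, gave 2.49 for Polk and 0.89 for Chek2, both called, and -0.33 for Atr (adjusted p = 0.00834).

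Other lists are given beside this split. Of 20 p53 targets, 19 were called higher in the cells with a Cdkn1a UMI, Cdkn1a itself having defined the split. Of 20 genes of G2 and mitosis, 11 were called lower and 1 higher, and their summed level was 2649 CPM with and 3254 CPM without in mutant 1, and 2859 CPM with and 3491 CPM without in mutant 2. Of 20 genes of S phase, 3 were called higher and 0 lower, a share close to the 14.6% of all genes called higher. The 8 mesenchyme markers summed to 1569 CPM with and 1835 CPM without in mutant 1, and to 1372 CPM with and 1618 CPM without in mutant 2. Surface ectoderm markers summed to 15.6 CPM with and 10.4 CPM without in mutant 1, and 10.5 CPM with and 5.56 CPM without in mutant 2. The part of these lists in the members' differences was not tested.

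The partners of these genes were read from 6 lists of 94 genes, of which 92 were tested. In mesenchyme as a whole 0 were called between mutants and control in edgeR, with 1 at an unadjusted p under 0.05 (Ercc5), and 0 were called in DESeq2. With the stricter cell filter Ercc5 was called higher. Between cells with and without a Cdkn1a UMI, 8 were called higher and 8 lower, again a share under the background of that comparison. Their median log2 fold was -0.04, beside -0.03 over all genes.

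The excision and bypass partners held the largest rises. Ercc5, the nuclease that cuts on the 3′ side of a lesion, was at 126.1 CPM with and 30.2 CPM without a Cdkn1a UMI in mutant 1, and at 118.5 CPM with and 26.4 CPM without in mutant 2, beside 27.6 CPM in control cells without (log2 fold 2.15, SE 0.09). Rev1, the scaffold of lesion bypass polymerases, to which Polk binds, was at 288.8 CPM with and 108.7 CPM without in mutant 1, and at 189.7 CPM with and 71.8 CPM without in mutant 2, beside 119.6 CPM in control cells without (1.43, SE 0.08). For both genes the sums with stood above every sum without. Both were also called outside the cluster that the control lacked, at 1.00 for Ercc5 (edgeR adjusted p = 0.0045) and 0.68 for Rev1 (0.0035). Rev1 overlaps Eif5b on the other strand. Msh6, of mismatch recognition, rose by 0.83, and Apex1 and Rad23b, of base and nucleotide excision, fell by 0.23 and 0.21. In mesenchyme as a whole, Ercc5 had a log2 fold of 0.80 (SE 0.30, edgeR adjusted p = 0.332) and Ddb2, which senses ultraviolet lesions, 0.41 (1.00).

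**Figure D3:**
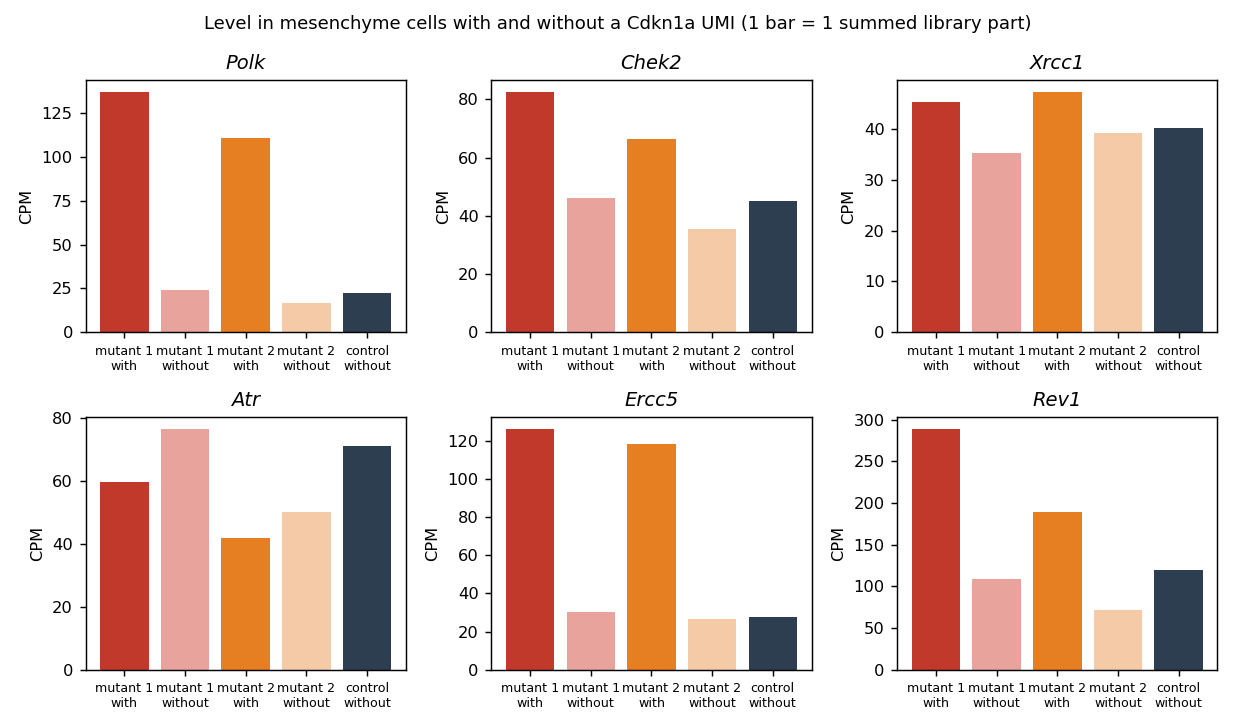
CPM of the 4 members called between mutant mesenchyme cells with and without a Cdkn1a UMI and of Ercc5 and Rev1, in cells thinned to 20000 UMIs. Bars are single sums of each library part, with no error, and the control bar is of cells without a Cdkn1a UMI. Polk, Chek2, Ercc5 and Rev1 are higher in both sums with than in any sum without.

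Of 16 checkpoint partners 1 was called higher and 2 lower in the split. Ppm1d, a p53-induced phosphatase that turns damage signals off, rose by 1.14 (SE 0.11), and the mitotic kinase Plk1 and the phosphatase Cdc25b fell by 0.69 and 0.75. Of the 9 chromatin response partners tested, H2afx, the histone whose phosphorylated form marks breaks, fell by 0.63, and the others were not called. Among the recombination partners Rad51d rose by 0.79. Of 13 Fanconi partners tested, the helicase Brip1 rose by 0.28, and Usp1, which removes ubiquitin from Fancd2, and Faap20, of the core complex, fell by 0.33 and 0.36. Of 13 end joining partners, the Ku-ligase bridging factor Nhej1 rose by 0.52 and the ligase Lig3 fell by 0.58. Outside the cluster that the control lacked, Ercc5 and Rev1 were the only partners called. There H2afx, Plk1 and Cdc25b kept negative log2 folds of -0.38, -0.35 and -0.32, while that of Rad51d was -0.37. Lig3, Faap20 and Usp1 had -0.36, -0.13 and -0.12. The rises of Ppm1d, Nhej1 and Brip1 shrank to 0.03 (SE 0.18), 0.08 and 0.06. In the mesenchyme comparison of mutants with control, the lowest unadjusted p of the other lists belonged to Ppm1d (0.43) and Etaa1 (-0.19), Paxip1 (-0.23) and H2afx (-0.16), Rad52 (-0.38) and Rad51c (0.26), Fan1 (0.29) and Ube2t (0.18), and Nhej1 (0.21) and Xrcc4 (0.19), all log2 folds with an edgeR adjusted p of 1.00.

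In the other 4 classes no member was called, and neither was any other gene in edgeR (0% of 7261 to 10656 genes). DESeq2 called 6 to 47 genes in these classes and 0 members. At an unadjusted p under 0.05 there was 1 member in endothelium, Rad50 (log2 fold 0.36, SE 0.11), where 6.91% of genes were under it. There were 0 in coelomic epithelium-like cells (1.61% of genes), erythroid-like cells (2.55%) and surface ectoderm (10.7%). The members' median log2 fold was 0.18 in coelomic epithelium-like cells, 0.05 in endothelium, 0.08 in erythroid-like cells and 0.01 in surface ectoderm, beside medians of -0.01 to 0.02 over all genes. Both mutants lay above the control for 18 of 30 members in coelomic epithelium-like cells (30.2% of genes), 13 of 30 in endothelium (35.4%), 15 of 28 in erythroid-like cells (29.6%) and 11 of 30 in surface ectoderm (36.3%). Both lay below it for 2, 9, 7 and 5 members in the same order of classes (30.5%, 35.1%, 34.3% and 37.8% of genes). Coelomic epithelium-like cells came in the main from a different cluster in mutant 2, and UMIs of the CRE feature were seen in 8 of 163 and 2 of 209 of them in the mutants and 0 of 180 in the control. In these cells the 7 erythroid markers summed to 7662 and 519 CPM in the mutants and 392.1 CPM in the control, and the 8 surface ectoderm markers to 49.2 and 292 CPM in the mutants and 104 CPM in the control. Their part in the members' values was not tested. Polk was at 24.2 and 25.2 CPM in those mutant cells and 15.9 CPM in the control (0.60, SE 0.25, edgeR adjusted p = 1.00). In endothelium it was at 28.7 and 24.3 CPM in the mutants, against 26.8 CPM in the control. In surface ectoderm it was at 28.5 and 26.9 CPM in the mutants, against 23.3 CPM in the control. Cdkn1a in surface ectoderm was at 45.1 and 67.8 CPM in the mutants, against 48.8 CPM in the control. In coelomic epithelium-like cells Cdkn1a was at 11.6 and 11.4 CPM in the mutants, against 0.996 CPM in the control. In endothelium it was at 21.6 and 9.87 CPM in the mutants, against 8.69 CPM. In erythroid-like cells it was at 1.39 and 6.48 CPM, against 7.17 CPM. The difference of the mutant effect in mesenchyme from that in surface ectoderm was tested with an edgeR interaction over 10652 genes, of which 0.807% were called higher and 0.873% lower. Of the members 0 were called, Polk having the lowest p (0.74, SE 0.30, adjusted p = 0.386).

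A few members differed between the 2 mutant libraries in the same way in every class, with or without UMIs of the CRE feature. Topbp1 was at 130.6 CPM in mutant 1 and 63.1 CPM in mutant 2 in mesenchyme, with 94.2 CPM in the control between them. In erythroid-like cells it was at 69.0 CPM in mutant 1 and 28.7 CPM in mutant 2, with 53.6 CPM in the control, and in surface ectoderm at 107.3 and 72.4 CPM, with 94.3 CPM. The log2 difference of mutant 2 from mutant 1 ran from -1.20 to -0.59 over the 5 classes, and the control lay between them in each. For Fance it ran from -1.09 to -0.65, with 14.7, 13.5, 13.2, 11.5 and 5.74 CPM in mesenchyme, coelomic epithelium-like cells, surface ectoderm, endothelium and erythroid-like cells of mutant 2. In the same order it was at 24.2, 22.2, 22.4, 20.4 and 12.8 CPM in mutant 1, and at 29.7, 21.0, 17.8, 20.4 and 12.0 CPM in the control. Mutant 2 was the lowest library for Fance in each of the 5 classes. Of 28 members tested in all 5 classes, these 2 were at least 0.5 lower in mutant 2 than in mutant 1 in each class, and 0 were as much higher. Of 6803 genes, 3.01% were lower and 0.0588% higher by that rule. Wee1 fell just outside it, 0.46 to 0.79 lower in mutant 2. What sets the libraries apart was not tested.

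**Figure D4:**
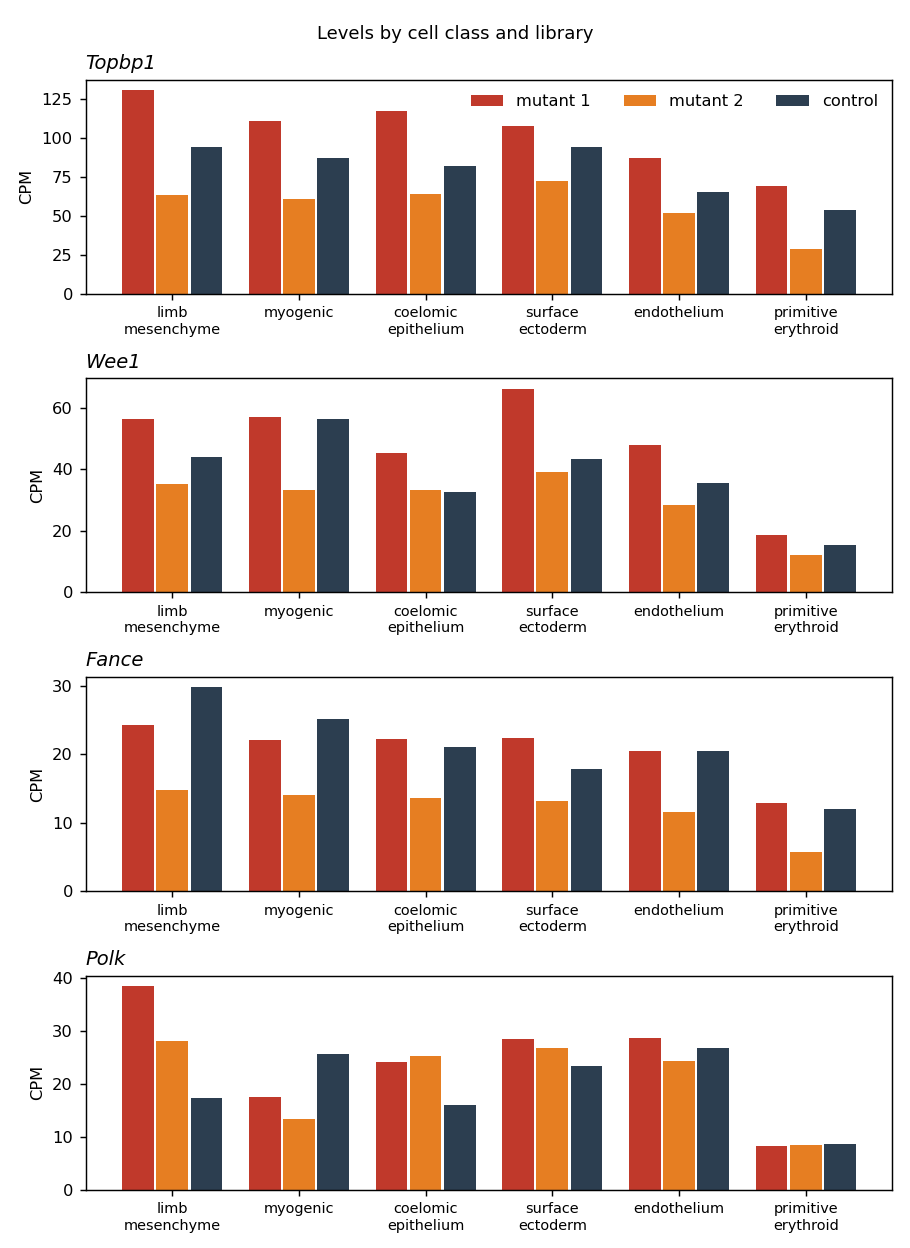
CPM of Topbp1, Wee1, Fance and Polk by cell class, with 1 bar for each library and no error. Myogenic cells, with under 50 control cells, are shown but were not tested. Topbp1 and Fance are lower in mutant 2 than in mutant 1 in all classes, and Polk has both mutants furthest above the control in mesenchyme.

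The summed level of the 31 genes did not separate the genotypes in mesenchyme taken as a whole. It was 1403 and 1182 CPM in the mutants and 1284 CPM in the control, and 1490 and 1216 CPM, against 1496 CPM, in cells thinned to 20000 UMIs. In surface ectoderm it was 1438 and 1362 CPM in the mutants, against 1312 CPM in the control. Coelomic epithelium-like cells had 1234 and 1203 CPM in the mutants and 1077 CPM in the control, endothelium 977 and 903 CPM against 879 CPM, and erythroid-like cells 599 and 519 CPM against 582 CPM. Of these 5 classes erythroid-like cells were lowest in each library. Surface ectoderm was highest in each library before thinning, but at 20000 UMIs it had 1439 and 1320 CPM in the mutants and 1414 CPM in the control, below mesenchyme in mutant 1 and the control. The classes were clustered on all genes, so the order is a description. Myogenic cells, too few in the control for a test, had 1188 and 1065 CPM in the mutants and 1304 CPM in the control.

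A larger difference lay between the mesenchyme clusters. In clusters 4 and 10, with a median mitochondrial share of 5.25% and 5.83% of UMIs, the 31 genes summed to 1738 CPM in mutant 1, 1601 CPM in mutant 2 and 1951 CPM in the control. In clusters 1 and 8, with 1.80% and 1.96%, they summed to 1216, 1081 and 1072 CPM in the same order of libraries. Both mutants thus lay below the control in clusters 4 and 10 and above it, mutant 2 by little, in clusters 1 and 8. The ratio was 1.43 in mutant 1, 1.48 in mutant 2 and 1.82 in the control. It was carried by most members, with 26, 26 and 29 of 31 higher in clusters 4 and 10. The share of all genes higher there was not counted, so a rise particular to these genes is not shown. Fancc, Fanca and Atr stood at least 1.00 higher on the log2 scale in all 3 libraries. Fancc, for one, was at 77.9 CPM in the high-mitochondrial clusters and 28.8 CPM in the others in mutant 1, at 69.8 and 30.1 CPM in mutant 2, and at 83.9 and 26.2 CPM in the control. Chek1 went the other way, at 34.7 and 50.9 CPM in mutant 1, 40.9 and 52.1 CPM in mutant 2 and 30.2 and 49.1 CPM in the control. Clusters 4 and 10 also had fewer UMIs per cell (medians of 20716 to 36984 over libraries, against 57027 to 114457), more of the nuclear RNA Malat1 (5184 to 7672 CPM, against 2414 to 3886 CPM) and less ribosomal protein RNA (4.96% to 11.7% of UMIs, against 18.9% to 21.8%). The part of these in the members' levels was not tested. Clusters were built on all genes, so their difference gets no test.

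These clusters made up 48.5% and 28.3% of mesenchyme cells in the mutants and 47.0% in the control, so the mesenchyme sums mix them unequally. Fitted apart, in an alternative added after seeing the data, 0 members were called in clusters 1 and 8 (members' median log2 fold 0.05) and 0 in clusters 4 and 10 (-0.15). Hardly any gene was called in these fits, with 0 of 9892 genes in the first and 0 higher and 2 lower of 10514 in the second. Log2 folds were positive for 21 of 30 members in clusters 1 and 8 and for 7 of 30 in clusters 4 and 10. The median over all genes was -0.0008 in clusters 1 and 8 and -0.0028 in clusters 4 and 10. The share of all genes with a positive value was not counted. Polk had 0.33 (SE 0.22) in clusters 1 and 8 and -0.02 (SE 0.29) in clusters 4 and 10. The cluster that the control lacked had 1465 and 1268 CPM for the 31 genes in the mutants, between both kinds of cluster.

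**Figure D5:**
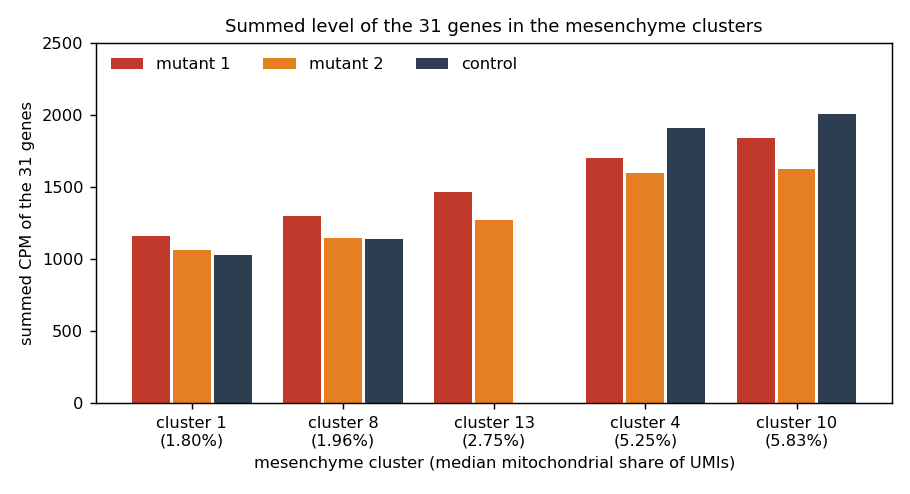
Summed CPM of the 31 genes in each mesenchyme cluster, ordered by median mitochondrial share of UMIs, with 1 bar for each library. Clusters 4 and 10 stand at 1596 to 2004 CPM and clusters 1 and 8 at 1027 to 1301 CPM in all 3 libraries, and cluster 13 has no control bar because it held 0 control cells.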

How the data were processed

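Forelimb buds at embryonic day 9.5 were profiled with Chromium 3′ version 3 chemistry, per the labels' protocols. The deposited matrices hold whole UMI counts per gene and barcode, written by Cell Ranger 7.0.0 per the file headers, with no normalization. Build mm10 and Seurat 4.0.0 come from the submitters' processing notes, which give no role for Seurat. Annotation release, intron handling, strand use and cell calling are stated in no label or header used. With reads counted without known strand use, 13 of the 31 genes overlap another counted gene (GENCODE vM21), so their counts may be shared.

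Barcodes with at least 500 genes and under 10% mitochondrial UMIs were kept. Scrublet through scanpy 1.11.5, at an expected rate of 0.06, called 41 to 122 doublets per library, which were removed. Cells were clustered together (2000 variable genes, 30 components, 15 neighbours, Leiden resolution 1.0). Clusters were named by marker lists, with at least 3 markers raised, and those under 33.3% of the library's median depth were left unnamed, a limit set after the clusters were seen. UMIs were summed per library and class, and tested with edgeR 4.0.16 (quasi-likelihood, TMM factors, mean of at least 5 CPM). Printed CPM are UMIs per 1000000 of all UMIs of the sum. The mutant against control fits and the split had 1 residual degree of freedom. In the main mesenchyme, interaction and split fits the prior degrees of freedom were infinite. There a gene's p rested on a trend over all genes and not on its own spread between the sums. Cells were thinned without replacement to 20000 UMIs for the split. DESeq2 was an alternative. The scripts were tested on simulated data. Intervals are exact Clopper-Pearson at 95%.

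The members and lists were chosen with earlier results of these data known. Every member was to be named, and of each partner list the called genes, or otherwise the 2 of lowest unadjusted p in mesenchyme, with Cdkn1a and Esco2 as checks. One of the partner genes is not reported here. Flank cells (0 in mutant 1), myogenic cells and macrophages were too few in a library for a test. R 4.3.3 and Python 3.11.15 were used.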

Additional observations from a re-analysis of the deposited data

Results flagged for a closer look

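Polk and Xpc were among the members higher in both mutants in shallow cells left out of the named classes. The alternative with shallow clusters added used all of them, and other cell definitions may have used some. These were 557 and 655 cells of the mutants and 1350 cells of the control in shallow clusters that scored highest for limb mesenchyme markers but whose depth left them unnamed. The mix of clusters differed, with 159, 346 and 52 cells of mutant 1 and 350, 225 and 80 of mutant 2 in clusters 0, 6 and 17, against 1081, 264 and 5 of the control. Ano3 and Ptprt, leading genes of the mesenchyme cluster that the control lacked, are also among the leading genes of cluster 17. Polk was at 22.8 and 18.8 CPM there in the mutants, from 41 and 74 UMIs, and at 3.4 CPM in the control, from 32 UMIs. Exact Poisson intervals at 95% ran from 16.4 to 30.99 CPM and from 14.8 to 23.6 CPM in the mutants and from 2.33 to 4.8 CPM in the control. Xpc was at 34.0 and 23.4 CPM in the mutants and at 14.3 CPM in the control, with intervals of 25.99 to 43.6 CPM, 18.9 to 28.7 CPM and 12.0 to 17.0 CPM. The intervals cover counting error only, and the summed depth was 1794982 and 3931132 UMIs in the mutants against 9411594 UMIs in the control. Other members, among them Atr, Rad50 and Fancd2, also had both mutants above the control, with intervals of mutant 2 and the control that overlapped. Fance, for one, had both mutants below it. The share of all genes with such a difference was not counted, so a rise particular to Polk and Xpc is not shown. A cause was not tested.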

How the results depend on the processing

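In mesenchyme, 0 members were called lower under any alternative, and 1 was called higher (Polk) with a stricter cell filter, doublets kept, cells gated one by one or shallow clusters added. Genes called higher and lower there numbered 78 and 45, against 49 and 12 with DESeq2, 212 and 116 at a mean of 1 CPM, 427 and 194 with no filter, 133 and 85 with the stricter filter, 47 and 26 after thinning, 0 and 0 with the prior degrees of freedom of the ectoderm fit or in the low-mitochondrial clusters alone, and 0 and 2 in the high-mitochondrial ones. Gating cells one by one gave 107 lower, and leaving out the cluster that the control lacked 18 higher. In the other classes and the interaction 0 members were called under every alternative run.

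Between cells with and without a Cdkn1a UMI, 3 members were called higher and 1 lower. These became 1 and 0 with no library term and outside the cluster that the control lacked. The lower count was 0 with DESeq2, another seed or the ectoderm prior, and 2 at a mean of 1 CPM or without thinning. Genes called, 1530 and 1170, became 728 and 176 with DESeq2, 338 and 0 with no library term, 112 and 9 outside that cluster and 661 and 82 with the ectoderm prior. Thinning to 10000 UMIs gave 722 lower. Polk was called in every alternative that gave a test.

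The members' median log2 fold stayed within 0.16 of 0 in mesenchyme (-0.091 after thinning, -0.15 in the high-mitochondrial clusters, -0.072 to 0.018 leaving out each mutant). It was 0.42, 0.11, 0.14 and 0.14 in coelomic epithelium-like cells with gating, doublets kept, no filter and the stricter filter, against 0.18. It was -0.011, -0.0205 and -0.034 in surface ectoderm at a mean of 1 CPM, with no filter and after thinning, against 0.01, with a range of 0.0105 to 0.036 over the mutants left out, and -0.040 in endothelium after thinning, against 0.05. The log2 ratio of summed levels after thinning was 0.21 in coelomic epithelium-like cells, -0.0086 in endothelium and -0.037 in surface ectoderm, against 0.18, 0.10 and 0.09. The causes were not tested. The mesenchyme subsets, the ectoderm prior in the split and the split outside the lacking cluster were chosen after seeing the data. Leaving out a mutant left 1 library against 1, a value with no test, and the only control could not be left out. No paired analysis was possible because there was 1 control library and its label carries no replicate number.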
